A study of Mus musculus with 2 samples.

Results

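The mitochondrial ribosomal protein genes were taken as all probe sets whose platform annotation gave exactly 1 symbol starting with Mrpl or Mrps followed by a digit. This rule found 156 probe sets of 76 genes, out of 34945 probe sets and 18193 genes with exactly 1 symbol and 45101 probe sets in all. By symbol, 47 of the genes belong to the large and 29 to the small mitochondrial ribosomal subunit. The rule used no signal, but the genes were chosen with earlier results of these arrays known.

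The cells were CD4+ T cells of DEREG mice, a strain in which the Foxp3 promoter drives green fluorescent protein (GFP). DEREG mice are known for a transgene that joins this GFP to a diphtheria toxin receptor, and both groups carry it. After negative selection, flow cytometry separated the GFP-positive, FoxP3-positive cells, which are regulatory T cells, from GFP-negative, FoxP3-negative CD4+ T cells. The sorted cells were over 99% pure, and RNA of each population was read on 1 Affymetrix mouse array. The sources used here do not give the organ, age or number of mice, or a treatment. The Foxp3 signal was 504 in GFP-positive against 173 in GFP-negative cells, a direction that matches the labels. The level in cells labelled FoxP3-negative nevertheless lay above the detection floor given below, as did those of the other regulatory T cell markers there: Il2ra (618 against 362), Ctla4 (2420 against 1244) and Ikzf2 (4435 against 2250). All 6 CD4 T cell markers with a probe set were detected on both arrays, and 5 of them were lower in GFP-positive cells, with Cd4 (256.5 against 415) and Cd3e (541 against 862) past 1.5-fold.

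With 1 array per group there is no test, no p-value and no standard error, and each difference is between these 2 arrays alone. Each difference is given as the log2 signal in GFP-positive cells minus that in GFP-negative cells. A signal floor of 49.98, the 90th percentile of genes restricted to other tissues, marks what counts as detected, and lower signals were raised to it. In sorted populations, fewer cells that hold a transcript and less of it per cell cannot be told apart. As a yardstick, probe sets that read 1 gene scattered in their log2 difference with a standard deviation of 0.41 among these genes (64 probe sets of 24 genes) and 0.42 among all genes. This scatter holds no variation between mice, sorts or hybridisations. The arrays also differed in quality: the 3′ to 5′ signal ratio was 5.30 against 3.57 for Actb and 9.27 against 6.24 for Gapdh, higher on the GFP-positive array, and 17 of 18 hybridisation control probe sets were brighter there, by a median ratio of 1.23. Of markers of CD8 T, NK, B, myeloid and erythroid cells, 5 of 11 lay above the floor in GFP-positive against 2 of 11 in GFP-negative cells. Over all probe sets, 48.1% and 44.5% lay above it. The marker signals ran from 1.7 to 100.4 and from 4.1 to 115.2, and they summed to 482 and 447. The part of RNA quality and of other cells in the results was not tested.

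Mitochondria keep their own ribosomes, which translate the few proteins encoded by mitochondrial DNA, all of them subunits of the respiratory chain and ATP synthase. The ribosomal RNAs come from mitochondrial DNA, but every protein of this ribosome is encoded in the nucleus, made in the cytosol and imported. The large subunit forms peptide bonds and the small subunit decodes the messenger RNA. Many of the proteins have relatives in bacterial ribosomes, while others were added in the mitochondrial lineage. T cells are known to depend on mitochondrial translation when they are activated and build up respiration.

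The promoters of the 5 genes that differed most between the arrays are shown as the 150 bases before the annotated start, 5′ to 3′, from RefSeq on build GRCm38.p6. Capitals mark matches, on either strand, to the binding motif letters of the ETS family (CCGGAAG) or of NRF1 (GCGCANGCG), factors known for control of nuclear genes of mitochondria. The regions lie on the plus strand at chr17:45686199-45686348 (Mrpl14), chr11:59202336-59202485 (Mrpl55), chr3:94443186-94443335 (Mrpl9), chr2:130563607-130563756 (Mrps26) and chr13:99344636-99344785 (Mrps27).
Mrpl14: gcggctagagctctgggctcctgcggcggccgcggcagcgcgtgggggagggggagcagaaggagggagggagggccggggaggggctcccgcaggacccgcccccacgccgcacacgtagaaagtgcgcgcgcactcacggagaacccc
Mrpl55: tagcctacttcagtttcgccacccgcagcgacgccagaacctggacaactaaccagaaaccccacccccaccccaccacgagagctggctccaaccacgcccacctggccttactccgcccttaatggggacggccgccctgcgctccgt
Mrpl9: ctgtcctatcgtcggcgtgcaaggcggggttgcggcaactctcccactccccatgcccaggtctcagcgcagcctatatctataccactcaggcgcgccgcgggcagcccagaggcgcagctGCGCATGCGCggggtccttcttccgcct
Mrps26: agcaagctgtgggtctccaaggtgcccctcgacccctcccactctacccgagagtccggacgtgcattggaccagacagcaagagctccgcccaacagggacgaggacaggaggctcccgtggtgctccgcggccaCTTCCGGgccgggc
Mrps27: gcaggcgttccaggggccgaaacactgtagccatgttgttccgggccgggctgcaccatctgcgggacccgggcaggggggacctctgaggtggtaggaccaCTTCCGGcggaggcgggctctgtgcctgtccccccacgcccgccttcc

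Mitochondrial ribosomal protein genes were detected in both populations and, by the brightest probe set of each gene, differed little between them. All 76 genes had a probe set above the floor on at least 1 array and 75 on both, the exception being Mrps27. A gene is represented by its brightest probe set, and these signals ran from 74.2 to 3723 on the GFP-positive array, with a median of 650, and from 13.4 to 3161 on the GFP-negative array, with a median of 601. The differences had a median of 0.03 log2 with quartiles of −0.16 and 0.17, against −0.0024 with quartiles of −0.27 and 0.29 for the 11594 genes detected on either array. Of the 76 genes, 41 (53.9%) were higher and 35 lower in GFP-positive cells, beside 49.8% higher among all genes. With the arrays scaled to equal medians, which lowers every difference between detected signals by 0.20 log2, 17 of the 76 were higher, beside 33% of all genes, while the median over all genes became −0.19 and that of the 76 genes −0.17. Relative to all genes, the median of the 76 lay 0.03 higher as deposited and 0.01 higher after that scaling. That offset was 0.08 after quantile normalization, 0.06 after loess, 0.06 with the floor doubled and −0.0012 without a floor.

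Few of these genes passed a fixed fold. Past 1.5-fold were 5 of 76 genes, 2 higher and 3 lower, where 19.6% of all genes passed (10.9% higher and 8.64% lower). At least 2-fold was 1 gene, Mrps27, where 4.85% of all genes passed. The median size of the difference, whatever its sign, was 0.16 log2 for the 76 genes and 0.28 for all genes. Over genes above the floor on both arrays, 4 of 75 members and 16.4% of all genes passed 1.5-fold. With equal array medians 9 of 76 members passed, beside 23.4% of all genes. When probe sets that can match several transcripts were left out, 8 of 62 passed, beside 20.7% of all genes. With the floor doubled, 4 of 75 members passed, beside 12.8% of all genes. As deposited and by the brightest probe set of each gene, the share past 1.5-fold was lower among the members than among all genes. This is a description of these 2 arrays without a test. The members had median signals of 650 and 601, well above the floor, and the part of signal level in this share was not tested.

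**Figure D1:**
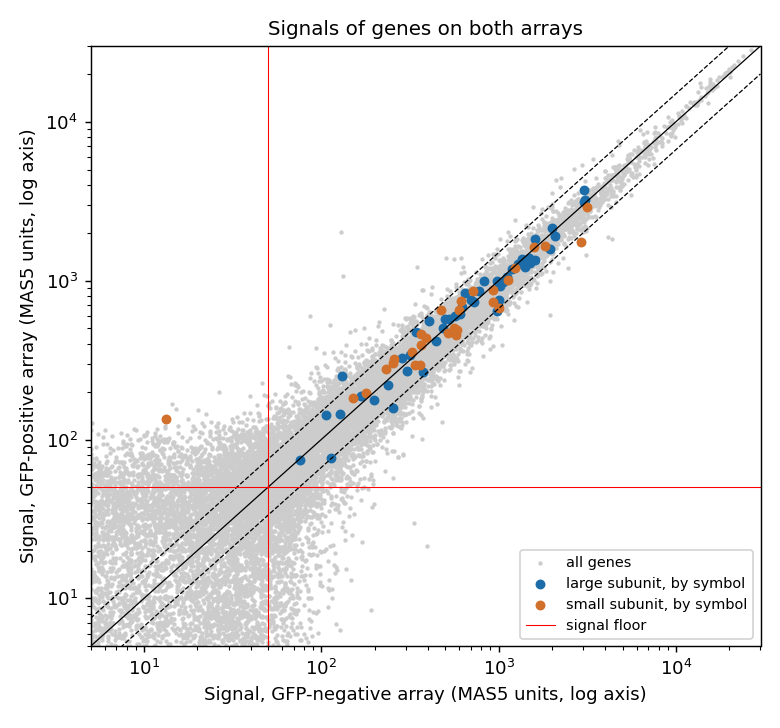
Signal of each gene on the GFP-negative array (horizontal) against the GFP-positive array (vertical), both in MAS5 units on log axes, with all genes in grey and the mitochondrial ribosomal protein genes coloured by subunit. The solid line marks equal signals, the dashed lines 1.5-fold and the red lines the floor of 49.98; 1 of the 76 genes, Mrps27, lies left of the floor at signals of 13.4 and 134.7.

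The large subunit genes, named Mrpl, centred on equal signals. Of 47 genes, 26 were higher and 21 lower, at a median of 0.03 log2, quartiles of −0.13 and 0.15 and a range from −0.68 to 0.93. Mrpl14, relative of the bacterial protein that sits at the interface of the subunits, had signals of 250 in GFP-positive against 131 in GFP-negative cells. This 1.91-fold difference (0.93 log2) was the largest in favour of GFP-positive cells among genes measured on both arrays, and rests on the gene's only probe set. Mrpl55, a relative of bacterial L31, gave 158 and 254.5, a 1.61-fold lower signal in GFP-positive cells, also from 1 probe set. Mrpl9, a relative of bacterial L9, gave 642 and 983, or 1.53-fold lower. That value was not shared by the gene's other probe sets, which gave 563 and 548 and 93.1 and 89.6, differences of 0.04 and 0.06 log2. The mean over the 3 probe sets was −0.17 log2, and Mrpl9 also lay under 1.5-fold after quantile normalization (−0.55) and loess (−0.56).

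Below that fold, the large subunit genes with the next higher differences were Mrpl32 (478 and 341, 0.49 log2), Mrpl47 (555 and 405, 0.45), Mrpl1 (142.5 and 106, 0.42) and Mrpl12 (833 and 649, 0.36), relatives of bacterial L32, L29, L1 and L12. Mrpl32 is known to be matured by the m-AAA protease of the inner membrane. On the lower side followed Mrpl38 (76.7 and 113, −0.56 log2), Mrpl36 (268 and 372.5, −0.48), Mrpl18 (753 and 1002, −0.41) and Mrpl58 (1587 and 1957, −0.30). Mrpl58, once named Ict1, is known as a peptidyl-tRNA hydrolase that frees stalled ribosomes. The further probe sets of Mrpl38 gave −0.14 and 0.32 log2, so its difference was not shared across the gene. Nor was that of Mrpl58, whose other probe set (76.1 and 2, the latter below the floor) gave at least 0.61 log2 the other way and turned the mean of both to 0.15.

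The stalk of the large subunit recruits translation factors. Of its genes, Mrpl10, Mrpl11 and Mrpl12 were examined, and each was on the higher side as deposited. Mrpl10, which anchors the stalk, had signals of 326 and 285 (0.19 log2). Mrpl11, at the base of the stalk, had 682.5 and 625 (0.13 log2), but its 4 probe sets ran from −0.27 to 0.82 log2. Mrpl12, which forms the mobile arm, had the largest of these differences at 0.36 log2, under the 0.41 scatter of probe sets of 1 gene. With equal array medians Mrpl10 and Mrpl11 turned negative, and Mrpl11 also did when its probe sets with shared targets were left out. Mrpl45, which anchors the ribosome to the inner membrane at the tunnel exit, had 340 and 318 (0.10 log2), which also turned negative under that scaling.

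Several large subunit genes had almost equal signals. The closest were Mrpl46 (729 and 726), Mrpl27 (1190 and 1197), Mrpl51 (1361 and 1347) and Mrpl15 (1277 and 1292), with differences from −0.02 to 0.01 log2. Their signs depended on the scaling: Mrpl46 and Mrpl51 turned negative with equal array medians, and Mrpl27 and Mrpl15 turned positive after quantile normalization and loess. For Mrpl51 a second probe set, below the floor in GFP-positive cells (41.2 and 77.7), gave −0.64 log2 as a bound, and the mean was −0.31. For Mrpl15 near-equal signals were seen on the probe set that stands for the gene, while its 6 probe sets above the floor on both arrays ran from −0.35 to 0.54. Mrpl52, a protein added in the mitochondrial lineage, had signals of 3723 and 3038.5, and each of its 3 detected probe sets favoured GFP-positive cells, by 0.27 to 0.42 log2.

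The small subunit genes, named Mrps, held the largest differences in both directions. Of 29 genes, 15 were higher and 14 lower, at a median of 0.05 log2, quartiles of −0.16 and 0.25 and a range from −0.74 to 1.43. Mrps27, a pentatricopeptide repeat protein, had a signal of 134.7 on the GFP-positive array and 13.4, below the floor, on the GFP-negative array. The GFP-positive signal exceeded the other by at least 2.70-fold (1.43 log2), a bound that fell under 1.5-fold, to 0.43 log2, with the floor doubled. This gene, too, has 1 probe set. Mrps26, a protein added in the mitochondrial lineage, had signals of 1754 and 2927.5, or 1.67-fold lower in GFP-positive cells (−0.74 log2). Its other probe set was below the floor on both arrays, at 24.6 and 34.8.

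Mrps34 lay just under 1.5-fold at 671.5 and 1005 (−0.58 log2). A further probe set shared by Mrps34 and its neighbour Nme3, which is no member because it carries 2 symbols, gave 598 and 657 (−0.14 log2). Mrps35 (732 and 926, −0.34 log2), Mrps33 (457 and 576, −0.33) and Mrps25 (296 and 359, −0.28) were also on the lower side, although another probe set of Mrps25 gave 0.33. On the higher side stood Mrps9 (657 and 476, 0.46 log2), a relative of bacterial S9 whose 4 probe sets were all higher, from 0.04 to 0.51, and Mrps28 (462 and 364, 0.34 log2). Mrps5 had 195 and 178 (0.13 log2), but its 3 probe sets above the floor on both arrays ran from 0.13 to 0.73. With its detected probe sets averaged, Mrps5 had 0.59 log2. The smallest differences were those of Mrps16 (1202 and 1246, −0.05 log2), Mrps18c (1635 and 1575, 0.05), Mrps24 (876.5 and 930, −0.09) and Mrps10 (353 and 327, 0.11). Mrps18c and Mrps10 turned negative with equal array medians, and Mrps16 turned positive after loess.

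**Figure D2:**
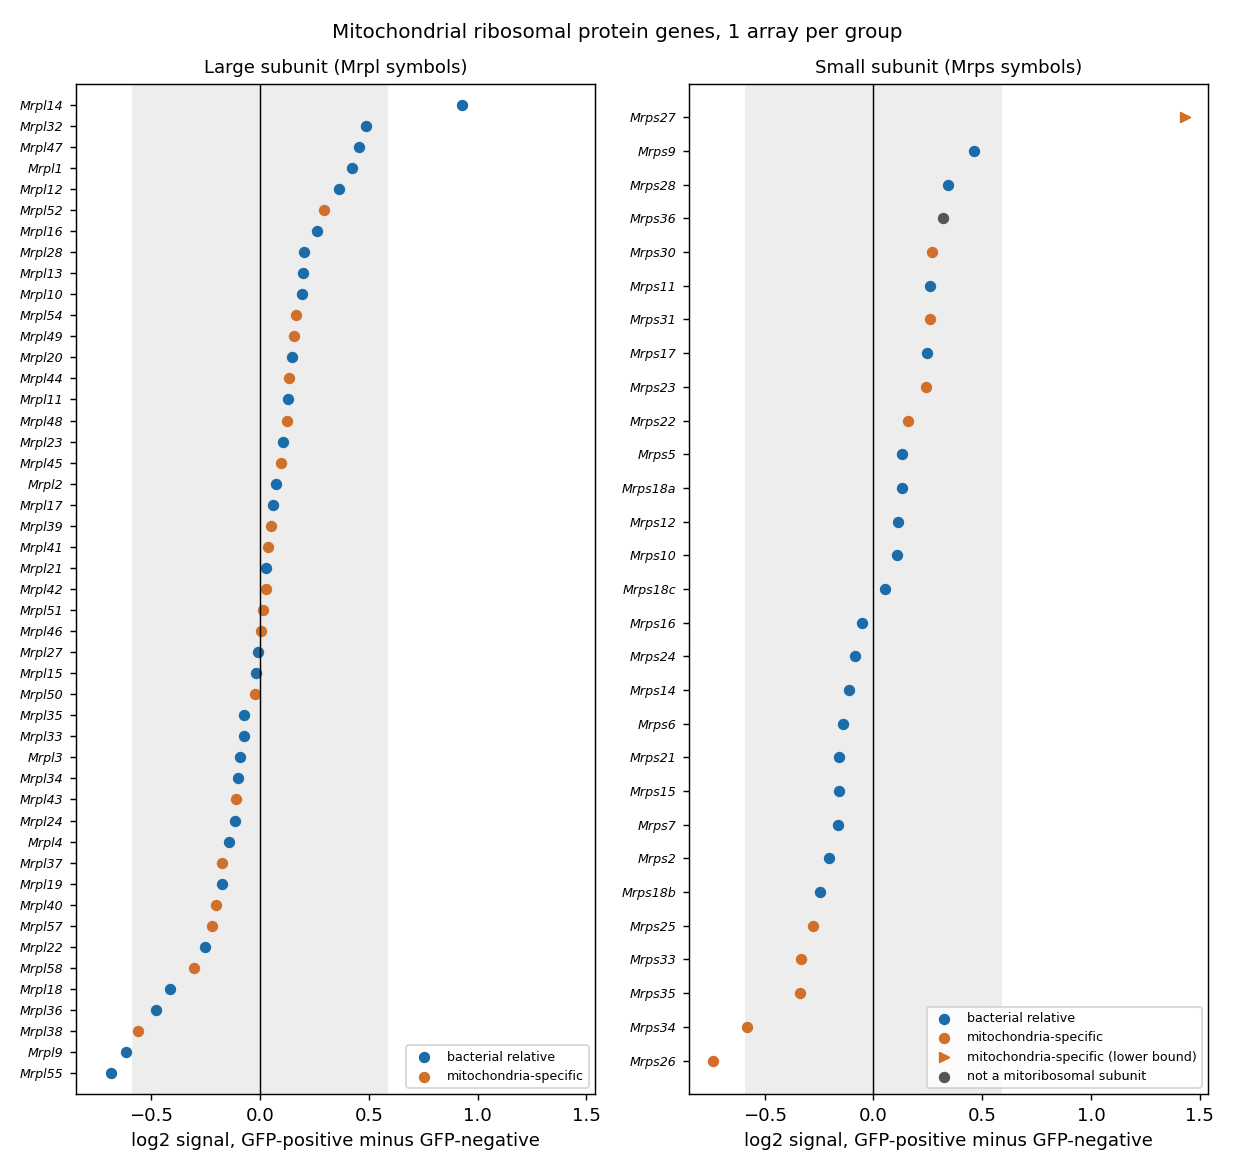
Log2 difference, GFP-positive minus GFP-negative signal, of each of the 76 genes, sorted within the large (left) and the small (right) subunit by symbol, coloured by whether the protein has a bacterial relative. The grey band marks 1.5-fold and the triangle a lower bound; 5 genes lie outside the band, Mrpl14 and Mrps27 above it and Mrpl55, Mrpl9 and Mrps26 below it.

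The ranges of large and small subunit genes overlapped. By symbol, the median of the large subunit was 0.03 lower than that of the small subunit (−0.03 log2), a difference without a test. Symbols do not match the published structures for 3 genes. Mrps30 and Mrps18a, despite their names, are built into the large subunit, and Mrps36 is now known as a part of the oxoglutarate dehydrogenase complex. All 3 were on the higher side: Mrps30 with 741 and 616 (0.27 log2), Mrps18a with 657 and 600 (0.13, which turned negative with equal array medians) and Mrps36 with 321 and 257 (0.32). With subunits assigned by structure, the large subunit held 49 genes with a median of 0.03, 28 higher and 21 lower, and the small subunit 26 genes with a median of −0.068, 12 higher and 14 lower. The difference of the medians then had the other sign, 0.096 log2. It also turned, to 0.02, when only genes detected on both arrays were kept, which leaves out Mrps27. Which subunit had the higher median thus rested on the placing of these few genes.

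The paralogues Mrps18a, Mrps18b and Mrps18c share 1 bacterial relative, S18, yet take different places in the ribosome. Mrps18b had signals of 491 and 582 (−0.25 log2), Mrps18c 1635 and 1575 (0.05) and Mrps18a 657 and 600 (0.13). Each difference was smaller in size than the standard deviation of 0.41 among probe sets of 1 gene, and each rests on 1 probe set.

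Proteins with and without bacterial relatives had nearly the same median. The 47 genes with a bacterial relative had a median of 0.03 log2, 24 higher and 23 lower, and the 28 mitochondria-specific genes a median of 0.02, 16 higher and 12 lower. Within the small subunit by structure, the 9 mitochondria-specific genes had a median of −0.28 and the 17 with a bacterial relative −0.05. Of those 9, Mrps25, Mrps26, Mrps33, Mrps34 and Mrps35 were lower and Mrps22, Mrps23, Mrps27 and Mrps31 higher, so no common direction was seen. The 19 mitochondria-specific large subunit genes had a median of 0.03 and all lay within 1.5-fold, while 3 of the 30 large subunit genes with a bacterial relative lay outside it.

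Probe sets of the same gene often disagreed. Of the 156 probe sets, 115 were above the floor on both arrays, 8 on the GFP-positive array alone, 7 on the GFP-negative array alone and 26 on neither. Among 24 genes with at least 2 probe sets above the floor on both arrays, all probe sets lay in 1 direction for 9 and in both directions for 15. For 3 genes they differed by more than 1 log2 unit. Mrpl57 gave 1285 and 1499 (−0.22 log2) on the probe set that stands for it and 136 and 55.6 (1.29) on the other. Mrps23 gave 302 and 255 (0.24), 104 and 98.7 (0.08) and 87.4 and 192 (−1.13), and Mrpl11 ranged as given above. With probe sets averaged, Mrpl57 had 0.54 and Mrps23 −0.27 log2, each opposite to the value above.

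Probe sets other than the brightest of a gene were more often higher than lower on the GFP-positive array. Of 54 such probe sets detected on either array, 36 (66.7%) were higher, with a median of 0.22 log2, beside 54.2% and 0.05 among all genes' probe sets of this kind. Counting every probe set by itself, 77 of 130 were higher and 21 passed 1.5-fold, beside 51.7% and 21.8% of all probe sets. Within 1.5-fold lay 83.8% of these 130, beside 78.2% of all probe sets. Of the 54 other than the brightest, 16 passed 1.5-fold. Within it lay 70.4% of those 54, beside 75.1% of all genes' probe sets of this kind. Genes restricted to other tissues, taken as background, had a median signal of 26.7 in GFP-positive against 14.9 in GFP-negative cells, so low signals were higher on the GFP-positive array also where no transcript is known. The part of this offset in the probe set values was not tested.

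**Figure D3:**
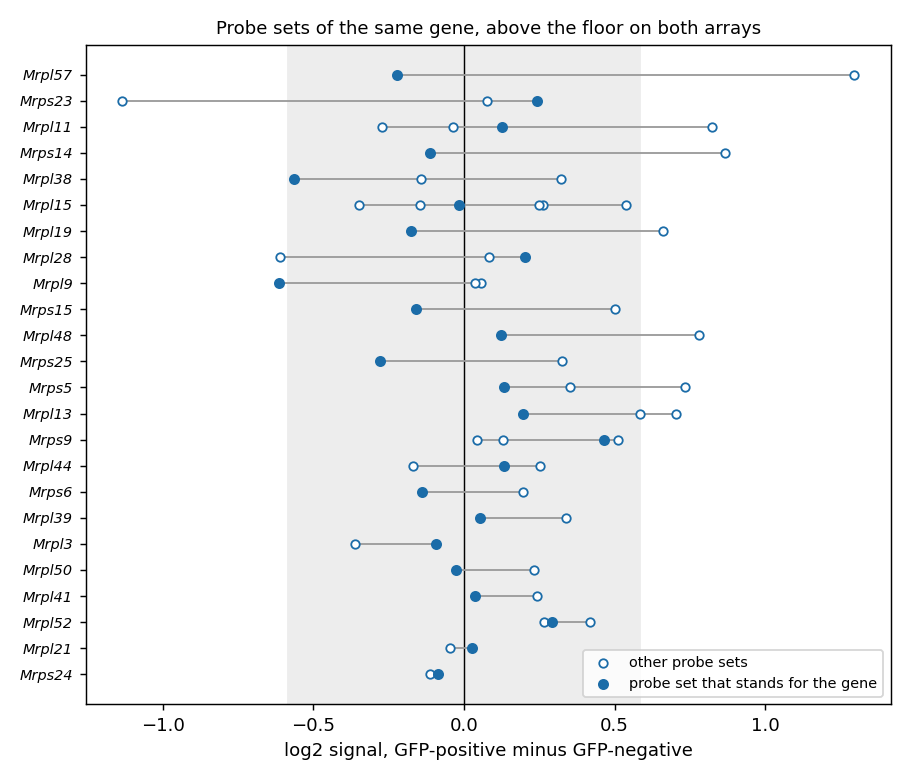
Log2 differences of the probe sets above the floor on both arrays for the 24 genes with at least 2 of them, with the probe set that stands for the gene filled and the others open, and the grey band marking 1.5-fold. Probe sets of 15 genes lie on both sides of 0, and those of Mrpl57, Mrps23 and Mrpl11 span more than 1 log2 unit.

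Other genes of mitochondrial gene expression were examined as lists. Mitoribosomal proteins named otherwise had probe sets for 4 genes: Dap3, a GTP-binding small subunit protein (1568 and 1443, 0.12 log2), Ptcd3 (400.5 and 360.0, 0.15), Chchd1 (608 and 753.5, −0.31) and Gadd45gip1 (374 and 423, −0.18). All 4 lay within 1.5-fold, which 19.6% of all genes passed. Of 13 translation factors, 5 were higher and 8 lower, at a median of −0.0082 log2. The elongation factor genes Tufm (318 and 319) and Gfm1 (676 and 614) were near equal, and Pdf, the peptide deformylase, gave 309 and 501, 1.62-fold lower in GFP-positive cells. Of 22 assembly and ribosomal RNA modification genes, 8 were higher and 14 lower, at a median of −0.07 and 1 past 1.5-fold, the 12S ribosomal RNA methyltransferase gene Mettl15 (113 and 182, 1.62-fold lower).

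Genes listed as mitochondrial aminoacyl-tRNA synthetases or amidotransferase subunits were mostly on the lower side, 14 of 19, beside 50.2% of all genes. Their median was −0.23 log2. Past 1.5-fold were Sars2, the seryl-tRNA synthetase gene (16.2, below the floor, and 93.8, at least 1.88-fold lower), Gatb, an amidotransferase subunit gene (58.2 and 91.9, 1.58-fold lower), and Ears2, the glutamyl-tRNA synthetase gene, in the other direction (156 and 98.2, 1.59-fold higher, or 0.47 log2 with equal array medians). With the floor doubled, Sars2 and Gatb were not detected.

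Among genes of mitochondrial DNA and RNA synthesis, 11 of 20 were higher and the median was 0.0077 log2. Polrmt, the mitochondrial RNA polymerase, gave 229.5 and 135, a 1.70-fold excess in GFP-positive cells that fell under 1.5-fold with equal array medians (0.57 log2) and with its probe sets averaged (0.34). Tfam, which packs mitochondrial DNA, had 442 and 564 (−0.35 log2). Among import genes 11 of 21 were higher and the median was 0.02. Tomm70a, an import receptor of the outer membrane, was 1.56-fold higher (631.5 and 404), but −0.13 log2 without probe sets ending in _s_at, _x_at or _a_at, 0.34 with its probe sets averaged and 0.44 with equal array medians. Timm9, a small chaperone of the intermembrane space, was lower (74.6 and 112, −0.59 log2, or −0.16 with the floor doubled). Of 12 chaperone and protease genes 5 were higher and 7 lower, at a median of −0.05. Afg3l1, a subunit of the m-AAA protease that matures Mrpl32, gave 63.4 and 228, 3.60-fold lower in GFP-positive cells (−1.85 log2, or −1.19 with the floor doubled). Afg3l2 and Spg7, its other subunits, had −0.42 and 0.29 log2, against 0.04 and −0.14 without the probe set endings above. Over all lists, 9 of 111 genes passed 1.5-fold. Cytosolic ribosomal protein genes had a median of 0.04 log2 with 3 of 51 past 1.5-fold, where again the share over all genes was 19.6%.

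**Figure D4:**
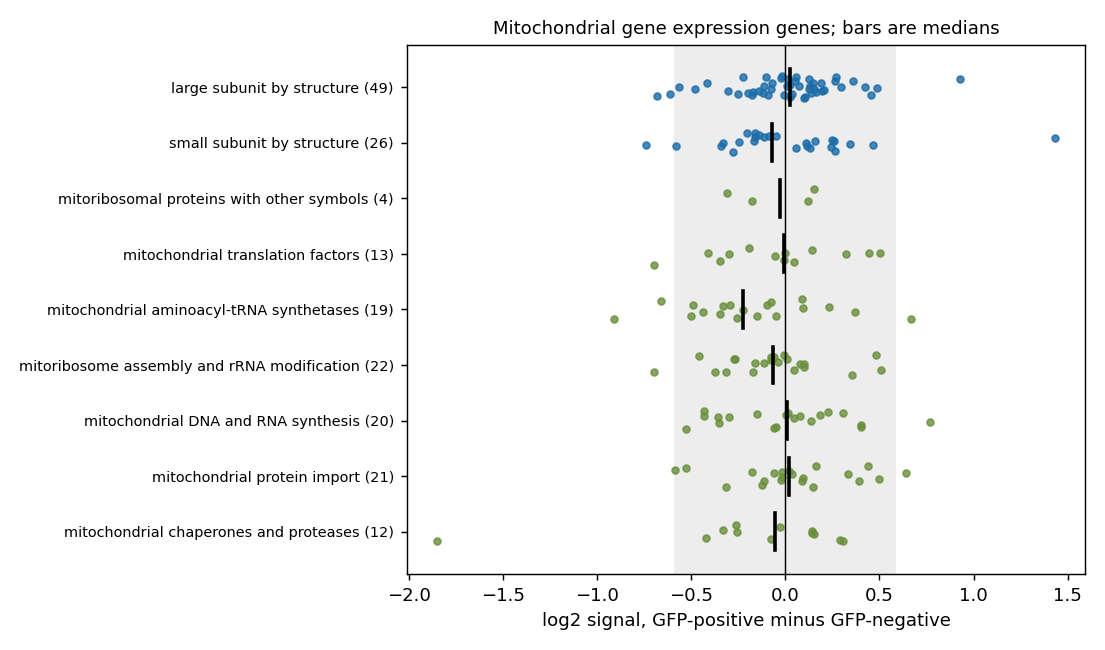
Log2 differences of the mitochondrial ribosomal protein genes by structural subunit (blue) and of 7 related gene lists (green), with the number of genes above the floor in brackets, black bars for medians and the grey band marking 1.5-fold. List medians lie between −0.23, for the aminoacyl-tRNA synthetases, and 0.03, for the large subunit; the farthest point is Afg3l1 at −1.85.

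Promoter letters, which the rule did not use, were counted without a test. RefSeq promoter entries were found for 67 of the 76 genes, 73 entries in all, and the 250 bases before the start were searched on both strands. ETS letters were found in 17 of 73 (23.3%), beside 13.2% of the 11909 promoters of genes above the floor and 6.91% of all 32851. NRF1 letters were found in 12 of 73 (16.4%), beside 10.5% and 5.16%. The E-box CACGTG was found in 9.59%, beside 8.28% and 6.02%, and the YY1 letters AAGATGGCG in 2 of 73 (2.74%), beside 1.16% and 0.606%. The E-box reads the same on both strands, and the ETS and YY1 letters can overlap at AAG. With 1 letter more at the 3′ end, C for NRF1 and G for YY1, 9 of 73 (12.3%) and 1 of 73 (1.37%) matched, beside 7.82% and 0.613% of promoters of genes above the floor. Either the ETS or the NRF1 letters occurred in 27 of 73 (37.0%), beside 21.9% of promoters of genes above the floor, so most member promoters held neither. A match is a description of letters and not a measured binding site.

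The motifs did not sort the genes by their difference. The 17 genes with ETS letters had a median of −0.0087 log2, 8 higher and 9 lower, and the 50 without 0.06. The 12 genes with NRF1 letters had a median of 0.05, 7 higher and 5 lower, and the 55 without 0.03. Among the promoters printed above, Mrps26 and Mrps27, on opposite ends of the range, both hold ETS letters, which begin 14 and 48 bases before the start, and Mrpl9 holds NRF1 letters on both strands at 28 and 27 bases before it.

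Many of these genes start back to back with another gene. Within 1000 bases upstream, on the other strand, 25 of 67 members (37.3%) had the start of a neighbour, beside 19.2% of genes above the floor. This gave 24 pairs, since Mrpl46 and Mrps11, from the large and the small subunit, share 1 such region with starts 42 bases apart; their differences were 0.0063 and 0.26 log2. Some other partners also serve mitochondria: Mrpl43 pairs with Twnk, the mitochondrial DNA helicase gene, Mrpl47 with the complex I gene Ndufb5, and Mrps12 with Sars2. These were picked by known function, and the share of such partners was not counted. Of the 21 pairs with both genes measured, 11 differed in the same and 10 in opposite directions. Within these pairs 6 neighbours passed 1.5-fold, 5 lower and 1 higher in GFP-positive cells, beside 19.6% of all genes. Of these 6, Pnpla7, the neighbour of Mrpl41, had 125 and 189 (−0.59 log2), Sars2 is given above and the others follow. Mrpl55 and its neighbour 2610507I01Rik were both lower in GFP-positive cells (62.3 and 149 for the neighbour, −1.26 log2, or −0.58 with the floor doubled), whereas Mrpl14 was higher and its neighbour Tmem63b lower (61.6 and 95.5, −0.63). For Mrps26, lower itself, the neighbour 4930473A02Rik, with a start 8 bases away, was higher, with signals of 119 and 30.6, the latter below the floor, at least 1.26 log2 or, with the floor doubled, 0.26. Hira, the neighbour of Mrpl40, had 99.7 and 214 (−1.10 log2), while Mrpl40 itself had 1224 and 1406.5 (−0.20).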

How the data were processed

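GFP-positive and GFP-negative CD4+ T cells were each read on 1 array, and array titles gave the groups. The deposited values are linear intensities per probe set, made by the authors with MAS5 (submitters' processing notes). Its version and settings: not given in the sources used here. On both arrays the 2% trimmed mean was 150.0, and no further scaling was applied. The floor came from 106 probe sets of 64 genes restricted to other tissues. A gene took its brightest probe set by mean log2 signal and entered if 1 signal exceeded the floor. Where only 1 did, the fold is a lower bound.

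Named were members past 1.5-fold, the 4 per subunit nearest to 0, genes whose probe sets span over 1 log2 unit, the Mrps18 paralogues, Mrps30, Mrps36, stalk and anchor genes, and up to 4 genes per list past 1.5-fold. Others, and the motif letters, were chosen after values were seen. Members and lists were chosen with earlier results of these data known. Subunit and origin follow general knowledge of published structures. Floor, filter, normalization, probe set and subunit choices were varied. The medians were tested on simulated data with less scatter than these arrays and only genes above the floor on both. Bounds at the floor were not tested that way. The software was Python 3.11.15, numpy 2.4.6, pandas 2.3.3 and statsmodels 0.14.6, for loess with a span of 0.3. The number of arrays limits the precision.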

Additional observations from a re-analysis of the deposited data

How the results depend on the processing

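Medians, counts, every member and the main genes named outside the family were recomputed under the alternatives; genes beyond the naming rule were added after the data were seen. A median counted as moved past 0.1 log2, a count past 1.5 times and a single gene past the 0.42 scatter of probe sets. Among medians and counts, 47 recomputed values stayed and 10 moved. Equal array medians gave a median of −0.17 for all members, −0.18 for the large and −0.15 for the small subunit, with 17 higher and 9 past 1.5-fold. Every probe set by itself gave 77 higher and 21 past 1.5-fold, out of 130 in place of 76, and leaving out probe sets ending in _s_at, _x_at or _a_at gave 8 past 1.5-fold out of 62 genes. Subunits by structure gave −0.068 for the small subunit and 0.096 for large minus small. Requiring detection on both arrays also turned that difference, to 0.02, because Mrps27 then leaves. Among values of single members, 578 stayed and 14 moved. These were Mrps27 (0.43 with the floor doubled, 3.33 without one); Mrpl57 (0.54), Mrpl58 (0.15), Mrpl9 (−0.17), Mrpl21 (−0.43), Mrpl38 (−0.13), Mrps5 (0.59), Mrps14 (0.38) and Mrps23 (−0.27) with probe sets averaged; and Mrpl19 (0.66), Mrpl51 (−0.64), Mrpl58 (0.61) and Mrps15 (0.50) without the probe sets named above. Of the genes outside the family, Tomm70a turned to −0.13 without those probe sets, 8 values moved and 166 stayed. No paired analysis was possible because there is 1 array per group. For the same reason no array could be left out. Signals near the floor limit Mrps27, Mrpl38, Mrpl50, Sars2, Gatb, Afg3l1, Timm9, Tmem63b and 2610507I01Rik, among others.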
